A study of Saccharomyces cerevisiae with 11 samples.

Results

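The genes described here are *UIP3*, *PRM9*, *YAT1*, *SWH1* and *FLO1*, neighbours near the right end of chromosome I of the budding yeast *Saccharomyces cerevisiae*. They were chosen on the values of the *rna15-1* arrays, where their signal lay near the background of the array, and each was found through the gene name that the platform annotation gives to its probe set. All 5 had 1 probe set each, out of 5498 yeast probe sets that measured 5449 genes. In the order of the R64 RefSeq gene table, 9 genes run from *UIP3* to *FLO1*, and 7 of them were measured with 8 probe sets. The other measured ones are *MST28* and *YAR035C-A*. *KTD1* and *DFP2* had no named probe set here. No stretch was drawn from a genome sequence, so "the stretch" below means the genes from *UIP3* to *FLO1* in that table.

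RNA of whole cultures was hybridised to Affymetrix yeast arrays, with 5 arrays of the wild type, 3 of *rna14-1* and 3 of *rna15-1*. *RNA14* and *RNA15* encode subunits of cleavage factor I, which cuts and helps to polyadenylate pre-mRNA 3′ ends. The wild type is W303-1B, and each mutant strain, named *rna14-1* W or *rna15-1* W in the labels, carries its one mutant allele in the same background. According to the labels all 3 strains are MATa and share the marker alleles *trp1-1*, *ura3-1* and *ade2-1*, besides *his3-11,15* and a *leu2* allele, and all were grown at 30°C to mid-log phase without further treatment. Each strain stands for 1 genotype in 1 background, and the labels name the arrays as biological replicates without saying whether the cultures were independent isolates. Both mutants were set against the same wild-type arrays. As the arrays measured whole cultures, fewer cells with a transcript and less transcript per cell cannot be told apart.

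The 5 genes encode proteins with unlike tasks. *UIP3* and *PRM9* belong to the DUP240 family, small proteins with membrane-spanning segments that lie in tandem on chromosome I, as does *MST28*. Uip3 was found as a partner of Ulp1, the protease that matures and removes the ubiquitin-like protein SUMO, and *PRM9* is named as a pheromone-regulated membrane protein gene. *YAT1* encodes a carnitine acetyltransferase at the mitochondrial outer membrane, one of the enzymes that move acetyl groups as acetylcarnitine. *SWH1*, also called *OSH1*, encodes a sterol-binding protein of the oxysterol-binding protein family found at the Golgi and at the contact between nucleus and vacuole. *FLO1* encodes a cell wall lectin, a flocculin, that binds mannose chains on other cells and makes them clump.

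Values are log2 intensities as deposited, so a difference of 1 is a 2-fold change, and errors of differences are standard errors. The background of an array is the 95th percentile of 1746 probe sets named for genes of other organisms or not in the yeast gene table, and it lay between 4.19 and 4.44, with a median gene between 10.34 and 10.40. "Rose" and "fell" are used for an adjusted p under 0.01 in a limma fit over all 5449 genes. The targeted genes were measured first: *RNA14* rose by 1.18 ± 0.09 in *rna14-1* (adjusted p = 1.01e-06) and *RNA15* rose by 0.66 ± 0.08 in *rna15-1* (adjusted p = 4.68e-05). Each also rose in the other mutant, *RNA14* by 0.80 ± 0.09 in *rna15-1* and *RNA15* by 0.84 ± 0.08 in *rna14-1*. These values do not check the labels, as neither allele removes its gene. Some arrays stood apart. Wild-type arrays 1 and 2 correlated with arrays 3 to 5 at r = 0.981 to 0.989, against 0.991 to 0.996 among the latter, and *rna15-1* array 3 correlated with arrays 1 and 2 at r = 0.964 to 0.965, against 0.997 between those. The mating-type label was also set against its markers. All 4 alpha-specific genes were above background on every array of each strain, with a summed level of 14.57 to 14.75 in the wild type, 14.29 to 14.71 in *rna14-1* and 15.69 to 15.82 in *rna15-1*. The summed level of all 6 a-specific genes was 9.75 to 10.43 in the wild type, 12.90 to 13.16 in *rna14-1* and 12.35 to 13.55 in *rna15-1*, and none of these genes was below background on every array of a strain. On every array of each strain the summed alpha-specific level was above the summed a-specific one. These levels go against a purely MATa culture in each strain, and their part in the results below was not tested.

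*UIP3* was bright in the wild type, at 11.65, 11.54, 11.68, 11.46 and 11.48, and in *rna14-1*, at 11.26, 11.17 and 11.07. On the *rna15-1* arrays it read 3.03, 2.96 and 3.14. All *rna15-1* arrays therefore lay below every other array, and each was below even the median of the background probe sets, which lay between 3.31 and 3.34 there. The difference from the wild type was -8.52, and because the signal was under background the change is given as a bound: *UIP3* was at least 116-fold lower in *rna15-1* than in *rna14-1*. No test is given for any *rna15-1* value of a member, since those values chose the members.

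*YAT1* showed the same order of strains. It read 10.31, 10.12, 10.33, 10.36 and 10.14 in the wild type, 9.42, 9.38 and 9.49 in *rna14-1*, and 4.25, 4.16 and 3.53 in *rna15-1*. The difference between *rna15-1* and the wild type was -6.27, and no *rna15-1* array was above its background. The carnitine acetyltransferase gene was at least 34.9-fold lower in *rna15-1* than in *rna14-1*, and *rna15-1* array 3 gave the lowest value of the set.

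*SWH1* read 10.56, 10.53, 10.46, 10.49 and 10.33 in the wild type, 10.20, 10.04 and 10.22 in *rna14-1*, and 4.24, 4.37 and 4.27 in *rna15-1*. Its difference between *rna15-1* and the wild type was -6.18. Of the members it lay closest to the background on the *rna15-1* arrays, from 0.07 below to 0.04 above it, and it was above it on 2 of 3 arrays. Its wild-type arrays spanned 0.24 and its *rna14-1* arrays lay under all of them, so the 3 strains did not overlap. Counted from the higher of signal and background, this sterol-binding protein gene was at least 57.1-fold lower in *rna15-1* than in *rna14-1*.

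*PRM9* was dimmer to begin with. It read 7.76, 8.04, 8.35, 8.23 and 8.33 in the wild type, 7.58, 7.48 and 7.63 in *rna14-1*, and 3.33, 3.92 and 3.36 in *rna15-1*. The difference between *rna15-1* and the wild type was -4.61. All 3 *rna15-1* arrays were under background, and as compared to them the gene was at least 14.3-fold higher in the wild type and at least 9.54-fold higher in *rna14-1*.

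*FLO1* was the member with an order of its own. The flocculin gene read 5.19, 5.27, 5.32, 4.91 and 5.24 in the wild type, 7.72, 7.96 and 8.12 in *rna14-1*, and 3.00, 3.60 and 3.04 in *rna15-1*. The wild-type level was within about 1 log2 unit of the background, so little room was left for a decrease, and the difference between *rna15-1* and the wild type was -1.97. Against the wild type the bound was at least 1.84-fold, whereas against *rna14-1*, where *FLO1* was well above background, it was at least 12.3-fold. The 3 strains did not overlap.

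**Figure D1:**
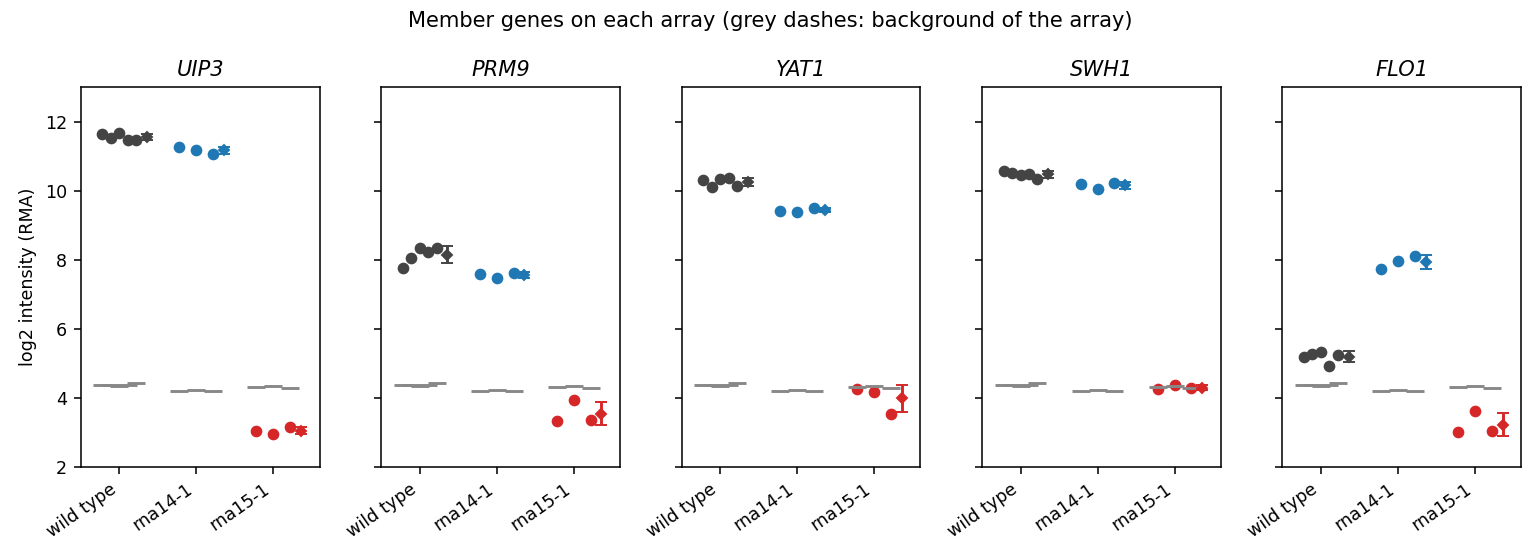
Log2 intensity (vertical axis) of each member gene on each array, grouped by strain on the horizontal axis, with the mean ± SD of each strain as a diamond to the right of its points and the background of each array as a grey dash. All *rna15-1* points of *UIP3*, *PRM9*, *YAT1* and *FLO1* lie under their dashes, those of *SWH1* lie within 0.07 of them, and *FLO1* alone is higher in *rna14-1*.

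Decreases of this size were rare on these arrays. Counted from the higher of signal and background, with 1 probe set standing for each gene (for *MST28* the shared one described below), 3 genes were lower in *rna15-1* than in the wild type by more than 5 log2 units, and these were *UIP3*, *YAT1* and *SWH1*. Among the 9 genes lower by more than 4 units, 3 were members. Of all genes tested, 0.128% were above background on every wild-type array and on no *rna15-1* array. These were 7 genes, of which *UIP3*, *PRM9*, *YAT1* and *FLO1* are members and *AGP3*, *ZNF1* and *SWC7* lie on chromosomes VI, VI and XII. As the rule used these same values, this count describes how the members were picked and supports nothing further. No gene met the same condition in *rna14-1*. Without *rna15-1* array 3, the array that stood apart, the differences from the wild type were -8.57 for *UIP3*, -4.52 for *PRM9*, -6.05 for *YAT1*, -6.17 for *SWH1* and -1.88 for *FLO1*.

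*MST28*, a DUP240 gene between *PRM9* and *YAT1* whose product binds the coats of transport vesicles, was measured by a pair of probe sets that gave opposite pictures. The probe set with no mark for shared sequence read 7.20, 6.81, 8.44, 8.40 and 8.42 in the wild type, 7.26, 7.72 and 7.56 in *rna14-1*, and 2.72, 3.01 and 2.46 in *rna15-1*. It was below the median background on all 3 *rna15-1* arrays, a difference of -5.12 from the wild type and a decrease of at least 11.7-fold. Its wild-type arrays 1 and 2 lay more than 1 unit under arrays 3 to 5. The other probe set, which the maker marks as shared with other genes, had a mean of 9.56 ± 0.23 (SD, n = 5) in the wild type, 10.39 ± 0.16 (n = 3) in *rna14-1* and 10.24 ± 0.87 (n = 3) in *rna15-1*. As the brighter of the pair it represented *MST28* in the fit across genes, so the unmarked set carries no test in either mutant. On *rna15-1* array 3 the shared set read 11.24, against 9.74 on both other *rna15-1* arrays.

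*YAR035C-A*, a very short open reading frame between *YAT1* and *SWH1* in the gene table, was above background on every *rna15-1* array, as only the shared *MST28* set was besides it in the stretch. It read 5.50, 6.51, 5.93, 5.12 and 5.38 in the wild type and 5.36, 5.43 and 4.93 in *rna15-1*, and those ranges overlapped. In *rna14-1* it read 7.90, 7.47 and 7.69 and rose by 2.00 ± 0.27 (adjusted p = 5.93e-05), so that both this gene and *FLO1* were higher there than on any wild-type array. On the readout used to choose members, *SWH1* was the one nearest to the background. Of the non-members, *YAR035C-A*, inside the stretch, was above it on 3 of 3 *rna15-1* arrays, and *YAR064W*, the first measured gene after *FLO1*, on 2 of 3.

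**Figure D2:**
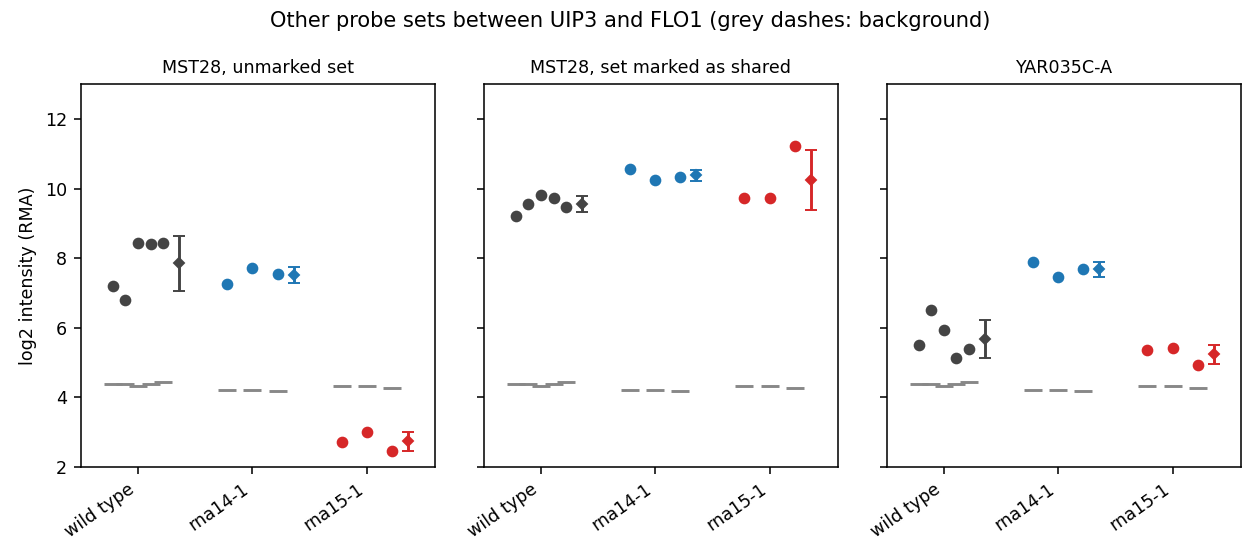
Log2 intensity (vertical axis) of the 3 further probe sets between *UIP3* and *FLO1* on each array, by strain, with mean ± SD as a diamond and the array's background as a grey dash. The unmarked *MST28* set reads 2.46 to 3.01 in *rna15-1*, the shared *MST28* set stays above 9 on every array, and *YAR035C-A* is highest in *rna14-1*.

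The neighbours on the left were all above background in *rna15-1*. The 10 measured genes before *UIP3* run from *SWD1* to *PAU7*, and their differences between *rna15-1* and the wild type ranged from -0.37 for *CDC15*, a kinase gene of mitotic exit, to 2.13 for *PAU7*, a seripauperin gene whose probe set is marked as shared. *ADE1*, a gene of purine synthesis, was 1.01 higher. *DFP1*, a gene between *PAU7* and *UIP3* in the table, had no named probe set here, so where the low values begin between *PAU7* and *UIP3* was not resolved. These values are given without a test, as the edges of the stretch were drawn on the same arrays.

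On the right, 4 measured genes follow *FLO1*, and they did not move alike. *YAR064W* read 5.95, 7.13, 7.19, 6.51 and 4.99 in the wild type and 4.31, 4.41 and 4.77 in *rna15-1*, a difference of -1.86 with wild-type arrays spread as widely. *YAR066W* and *YAR068W* were higher in *rna15-1* than in the wild type, by 2.28 and 2.07. For *YAR068W*, the only one of the 4 whose probe set carries no mark for shared sequence, the arrays read 12.01, 11.93 and 11.15 in *rna15-1* and from 9.45 to 9.76 in the wild type. *PHO11*, an acid phosphatase gene of the phosphate regulon next to the chromosome end, was lower by 3.84, at 8.43, 8.33 and 9.46 in *rna15-1* against 12.09 to 12.96 in the wild type. Its signal remained far above background, unlike the members, but its probe set is marked as shared, so that signal may not be of *PHO11* alone. The sets measured between *FLO1* and *YAR068W* are marked as shared too, so where the low values end was not resolved there.

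**Figure D3:**
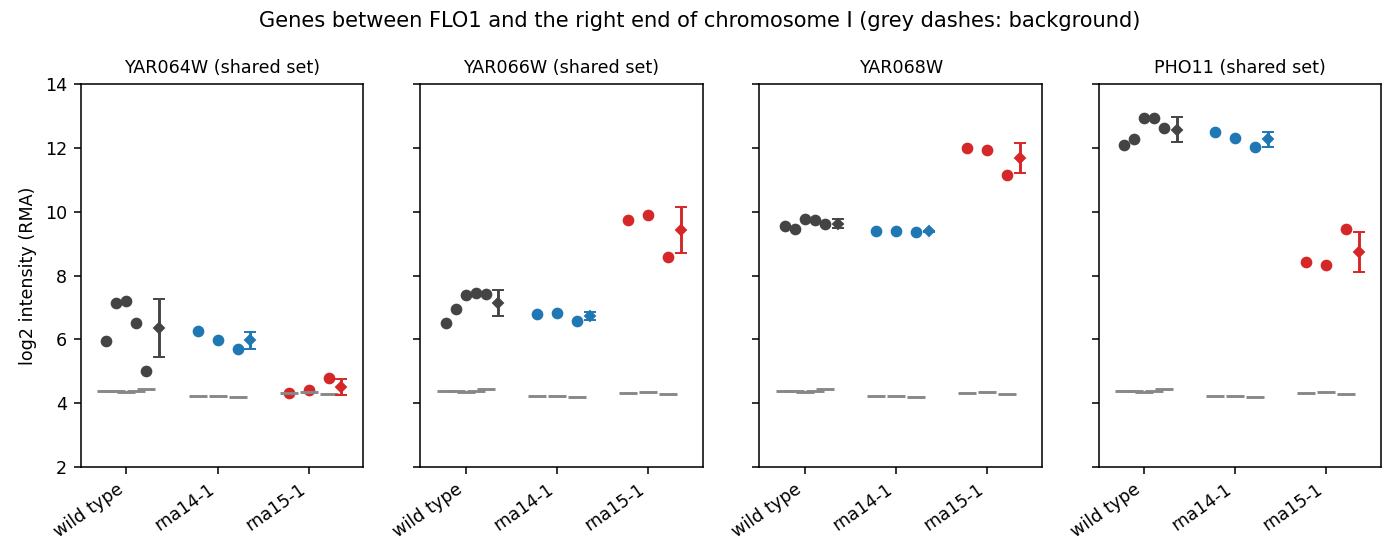
Log2 intensity (vertical axis) on each array, by strain, of the 4 measured genes that follow *FLO1* towards the chromosome end, with mean ± SD as a diamond and the background as a grey dash. In *rna15-1*, *YAR064W* lies near the background, *YAR066W* and *YAR068W* lie above all wild-type arrays, and *PHO11* lies below them but above 8.

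Elsewhere on chromosome I, values were spread around 0 in both mutants. Of the 83 measured genes outside the stretch, 24 rose and 24 fell in *rna15-1*, beside 28.2% and 24.7% of all genes, with a median difference of -0.05. In *rna14-1*, 27 rose and 22 fell, beside 32.8% and 29.5% of all genes, with a median of 0.09. The medians over all genes were 0.03 and 0.0035. Among those 83 genes, *TDA8* was the 1 under background on every *rna15-1* array. In the wild type 4 of 5 arrays were above background for it, and the difference in *rna15-1* was -0.83. Left of *UIP3* the lowest difference in *rna15-1* was -1.64, for *CCR4*, the gene of a deadenylase subunit. Runs of at least 3 neighbouring measured genes, each more than 2-fold below the wild-type mean, were found at 6 places in *rna15-1*. Such runs were found in *rna14-1* too, none of them on chromosome I, with medians from -2.16 to -1.13. Here means were taken as deposited, signal under background included, with the shared probe set standing for *MST28*. On chromosome I the 3 genes from *SWH1* to *YAR064W* formed a run with a median of -1.97, the value of *FLO1*. As *FLO1* has only a bound of at least 1.84-fold, that run rests on signal under background. Another run, of the 3 genes from *AAD6* to *DAK2* on chromosome VI, had a median of -3.52. *AGP3* and *ZNF1*, under background on every *rna15-1* array, lie on chromosome VI too, close together by their locus tags YFL055W and YFL052W. Their differences from the wild type were -3.68 and -0.97, so low neighbouring genes were not confined to chromosome I. With the unmarked *MST28* set in place of the shared one, a choice made after the values were seen, *UIP3* to *YAT1* also formed a run. Its 4 measured genes had a median of -5.70. The runs on chromosome I hold members, so they describe values that chose the members.

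**Figure D4:**
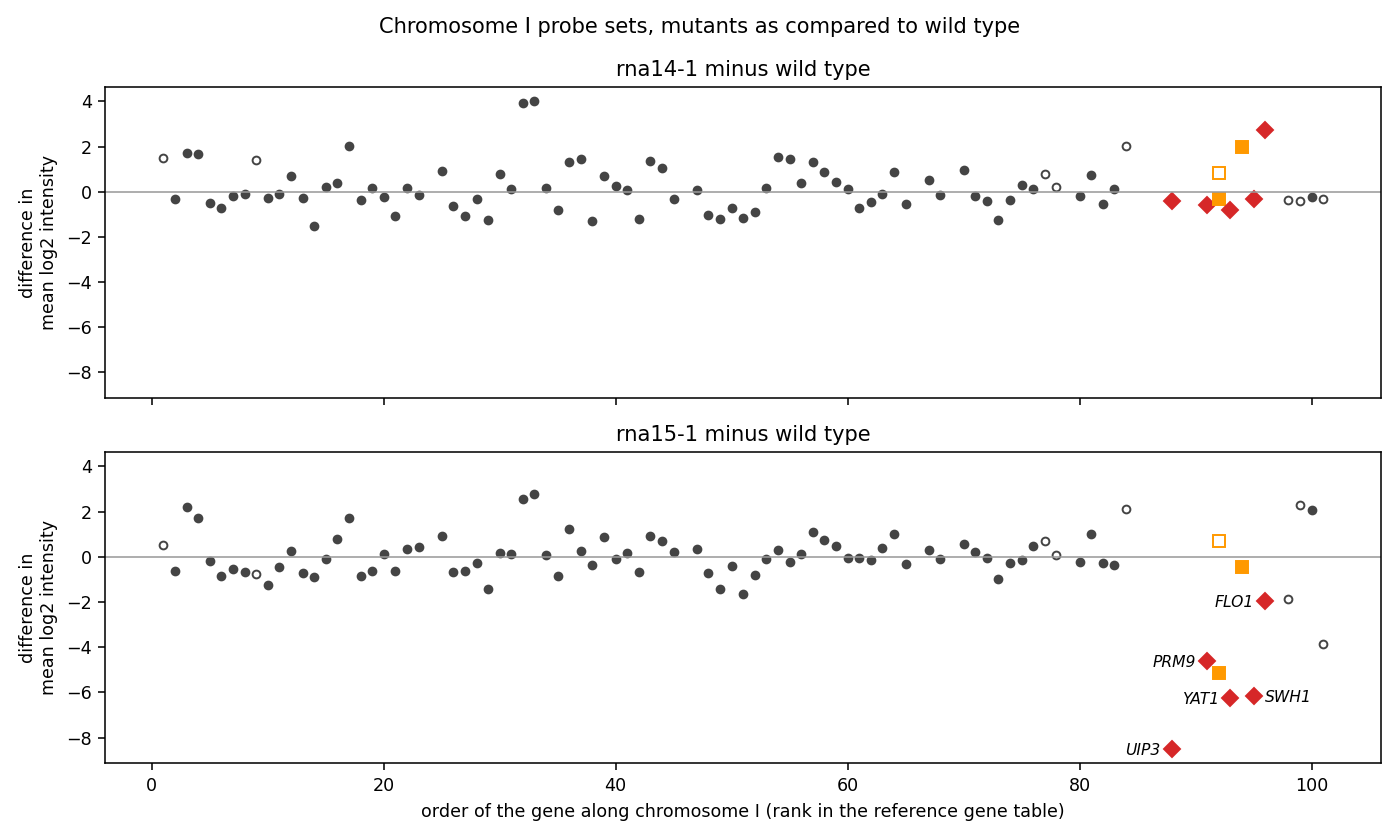
Difference in mean log2 intensity from the wild type (vertical axis) for every probe set of chromosome I, by the order of its gene in the reference gene table (horizontal axis), in *rna14-1* (top) and *rna15-1* (bottom). Red diamonds are members, orange squares the other probe sets between them, and open symbols probe sets marked as shared. In *rna15-1* the members and the unmarked *MST28* set lie between -1.97 and -8.52, whereas in *rna14-1* the members lie between -0.82 and 2.75.

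The *rna14-1* arrays did not enter the choice of members, so the members were tested there. The spread behind these tests was estimated over all 11 arrays, however, the *rna15-1* arrays that chose the members included. A limma fit of only the wild type and *rna14-1* gave adjusted p = 9.99e-06 for *YAT1* and 1.27e-07 for *FLO1*. It gave 0.0011 for *UIP3* and 0.0032 for both *PRM9* and *SWH1*. Of the 5, 4 fell and 1 rose in *rna14-1*, beside 29.5% of all genes that fell and 32.8% that rose. In each case all 3 *rna14-1* arrays lay outside the range of the 5 wild-type arrays, as they lay below it for 36.1% of all genes and above it for 37.7%. For 1 of the 5, *FLO1*, the arrays of both mutants lay on opposite sides of that range, as they did for 3.08% of all genes, and the *rna15-1* side of this was used in the choice of members. *FLO1* rose by 2.75 ± 0.15, or 6.71-fold (adjusted p = 1.31e-07). *YAT1* fell by 0.82 ± 0.14 (adjusted p = 0.000357), *PRM9* by 0.58 ± 0.16 (adjusted p = 0.0072), *UIP3* by 0.39 ± 0.08 (adjusted p = 0.000837) and *SWH1* by 0.32 ± 0.07 (adjusted p = 0.0023). These decreases were all less than 2-fold. After quantile normalisation *PRM9* was at -1.06, or 2.09-fold lower, and *FLO1* at 2.09, or 4.25-fold higher. Under the thresholds stated in the methods, which further ask for a change of more than 2-fold, a mean log2 intensity above 7 over the arrays and a B-statistic above 2, 0 members were called, beside 10.1% of all genes called higher and 7.96% called lower. *FLO1* missed them only on the mean intensity, which was 5.40 over the 11 arrays, the low *rna15-1* values included.

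The decrease of *PRM9* in *rna14-1* rested on which wild-type arrays were used. The mean of wild-type arrays 1 and 2 was 7.90 and that of arrays 3 to 5 was 8.30. Against arrays 1 and 2 alone the difference was -0.34 (adjusted p = 0.14 by limma), and against arrays 3 to 5 alone it was -0.74 (adjusted p = 0.0018). *FLO1*, by comparison, differed by 2.70 and 2.77 against the same subsets (adjusted p = 3.88e-05 and 5.11e-06). *SWH1* was at -0.39 and -0.27 (adjusted p = 0.0051 and 0.012), on either side of the threshold of 0.01.

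Relatives of *FLO1* outside the stretch also rose in *rna14-1*. Of the other flocculin genes, 3 were measured and all 3 rose there, beside 32.8% of all genes: *FLO9* by 1.40 ± 0.11 (adjusted p = 1.26e-06), *FLO11*, which serves invasive and biofilm growth, by 1.19 ± 0.14, and *FLO10* by 0.57 ± 0.12. In *rna15-1*, *FLO11* rose by 1.73 ± 0.14, while *FLO9* fell by 0.77 ± 0.11 (adjusted p = 0.000129). *FLO10* passed there at 0.47 ± 0.12 (adjusted p = 0.0061), a call lost in 10 of 20 alternatives, against either wild-type subset among them. *FLO9* lies on chromosome I too, and its probe set is marked as shared, so that signal may not be of *FLO9* alone. It read 9.24 to 9.50 in *rna15-1*, 10.06 to 10.35 in the wild type and 11.39 to 11.82 in *rna14-1*, the same order of strains as *FLO1* but with all values above background.

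Of 5 regulators of flocculation, all measured, 1 rose and 3 fell in each mutant, beside 32.8% of all genes that rose and 29.5% that fell in *rna14-1*, and 28.2% and 24.7% in *rna15-1*. *SFL1*, a repressor of flocculin genes, fell by 2.25 ± 0.13 in *rna14-1* (adjusted p = 1.81e-07) and by 0.84 ± 0.13 in *rna15-1*. *CYC8* and *TUP1*, which encode a general co-repressor, fell by 1.10 ± 0.09 and 0.91 ± 0.09 in *rna14-1* and by 0.57 ± 0.09 and 1.20 ± 0.09 in *rna15-1*. *FLO8*, an activator of *FLO1* and *FLO11*, rose by 1.25 ± 0.16 in *rna14-1*. In *rna15-1* it rose by 0.57 ± 0.16, at the edge of the threshold with an adjusted p of 0.01, and this call was lost in 13 of 20 alternatives.

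Of 4 other genes for carnitine acetyltransferases and carnitine transport, 3 rose in each mutant and none fell, where 32.8% of all genes rose in *rna14-1* and 28.2% in *rna15-1*. *YAT2*, for a further carnitine acetyltransferase, rose by 1.28 ± 0.15 in *rna14-1* and 1.39 ± 0.15 in *rna15-1*. *CAT2*, for the enzyme of peroxisomes and mitochondria, rose by 1.23 ± 0.12 and 0.84 ± 0.12, and *AGP2*, for a plasma membrane carnitine transporter, rose by 2.77 ± 0.20 and 1.25 ± 0.20. *CRC1*, for the mitochondrial carnitine carrier, differed by 0.59 ± 0.22 and 0.25 ± 0.22 (adjusted p = 0.03 and 0.33). The median of the 4 was 1.26 in *rna14-1* and 1.05 in *rna15-1*, beside medians over all genes of 0.0035 and 0.03.

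Of the 6 oxysterol-binding protein homologues outside the stretch, 4 fell and 1 rose in each mutant. These were not all the same genes, as *OSH7* fell by 0.30 ± 0.06 in *rna14-1* and rose by 0.28 ± 0.06 in *rna15-1*. Of all genes, 29.5% fell and 32.8% rose in *rna14-1*, and 24.7% and 28.2% in *rna15-1*. *OSH2*, which of the family is closest to *SWH1* in its domains, fell by 1.04 ± 0.13 in *rna14-1* and by 1.36 ± 0.13 in *rna15-1*. *KES1* fell by 1.10 ± 0.20 in the former and fell by 1.29 ± 0.20 in the latter. *HES1* rose by 2.47 ± 0.42 in *rna14-1* (adjusted p = 0.000292), and its difference of 1.45 ± 0.42 in *rna15-1* did not pass (adjusted p = 0.0104). Among 7 genes for partners of Osh1 at the nucleus and vacuole, *SCS22*, for an endoplasmic reticulum receptor, rose by 0.68 ± 0.10 in *rna14-1*, and *NVJ2* fell by 1.10 ± 0.11 in *rna15-1*. The other 6 in each mutant did not pass, among them *NVJ1* and *VAC8*, whose products tie the nucleus to the vacuole, at -0.09 and -0.01 in *rna14-1*.

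The 2 DUP240 genes measured outside the stretch were not low in *rna15-1*. *MST27*, whose product acts together with Mst28, rose by 2.67 ± 0.37 in *rna15-1* (adjusted p = 8.9e-05) and by 2.23 ± 0.37 in *rna14-1* (adjusted p = 0.000239). In *rna15-1* it read 9.62 to 11.00 against 6.89 to 8.20 in the wild type. *PRM8* rose by 0.77 ± 0.11 in *rna15-1*, and its difference in *rna14-1* was -0.32 ± 0.11 (adjusted p = 0.022). Of 10 genes listed for the family, 5 were measured, 3 of them in the stretch.

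Other pheromone-regulated membrane protein genes rose in *rna15-1* more often than they fell. Of 9 measured besides *PRM9*, 7 rose and 2 fell there, beside 28.2% of all genes that rose and 24.7% that fell. In *rna14-1*, 4 rose and 3 fell, beside 32.8% of all genes that rose and 29.5% that fell. *PRM6*, for a potassium transporter, rose by 6.75 ± 0.34 in *rna15-1* and 2.36 ± 0.34 in *rna14-1*. *PRM3*, needed for nuclear fusion, rose by 3.74 ± 0.17 and 2.56 ± 0.17. *PRM2* rose by 3.61 ± 0.21 in *rna15-1* and differed by 0.52 ± 0.21 in *rna14-1* (adjusted p = 0.04), while *PRM5* rose in both. *PRM9*, with its 3 values of 3.33 to 3.92 in *rna15-1*, was the only one of the 10 below background there. The mating-type markers changed as well: all 6 a-specific genes rose in both mutants, beside 32.8% of all genes in *rna14-1* and 28.2% in *rna15-1*. Of the alpha-specific genes, 4 of 4 rose in *rna15-1* and none in *rna14-1*, where *STE3* fell by 0.59 ± 0.09. The part of these markers in the values of the list was not tested.

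**Figure D5:**
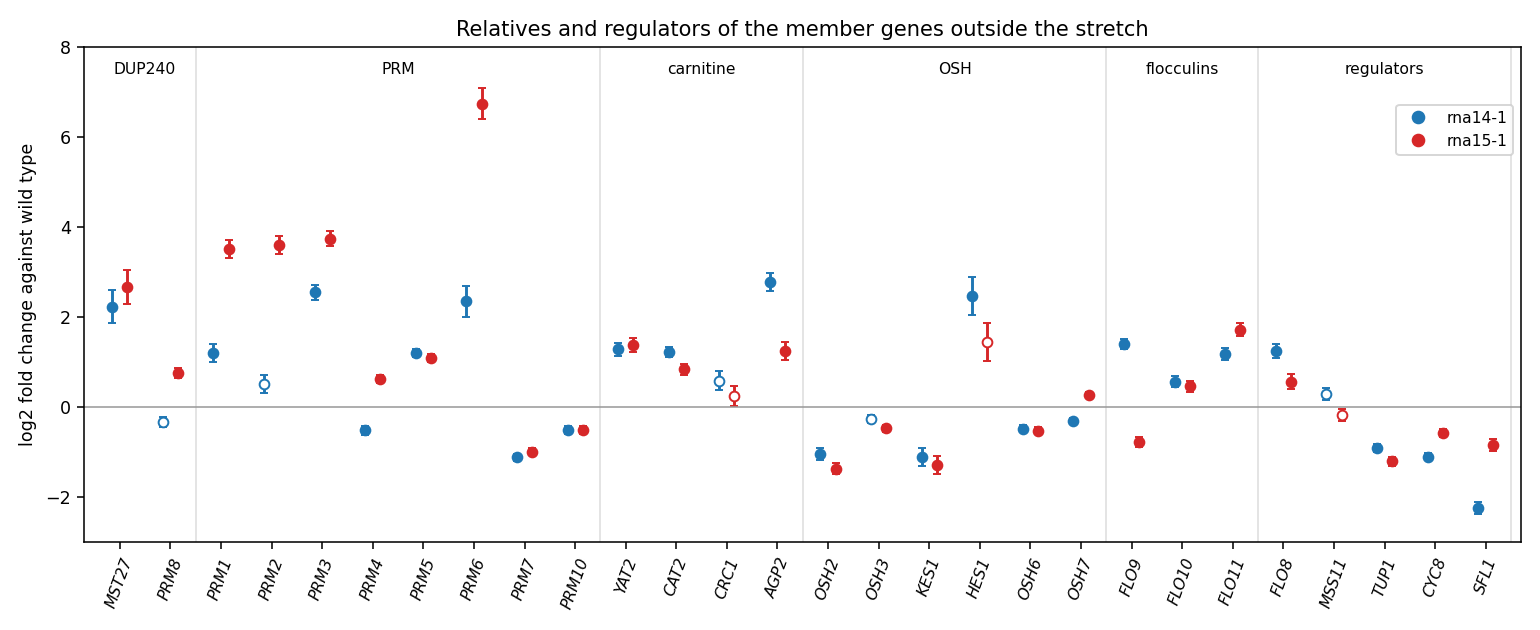
Log2 fold change against the wild type ± standard error (vertical axis) for genes outside the stretch that are related to the members or regulate *FLO1*, in *rna14-1* (blue) and *rna15-1* (red), from the limma fit. Filled points have an adjusted p under 0.01. *MST27*, the carnitine genes *YAT2*, *CAT2* and *AGP2*, and *FLO11* rose in both mutants. *FLO9*, read by a probe set marked as shared, rose in *rna14-1* and fell in *rna15-1*.

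Genes of the SUMO pathway of Ulp1, the partner of Uip3, fell or did not pass. Of 6, none rose in either mutant, 4 fell in *rna14-1* and 3 in *rna15-1*, where 29.5% and 24.7% of all genes fell. *SIZ1*, for a SUMO ligase, fell by 1.70 ± 0.07 in *rna14-1* and fell by 1.13 ± 0.07 in *rna15-1*. *NFI1*, for a further ligase, fell by 1.25 ± 0.11 in *rna14-1*, and its difference in *rna15-1* was -0.50 ± 0.11 (adjusted p = 0.0023). *UBC9*, for the conjugating enzyme, fell by 0.44 ± 0.11 in *rna14-1*, a call lost in 6 of 20 alternatives, and *ULP2*, for a second SUMO protease, fell by 0.58 ± 0.11 in *rna15-1*. *ULP1* itself passed in neither mutant, with a difference of 0.20 ± 0.06 in *rna14-1* (adjusted p = 0.013) and 0.03 ± 0.06 in *rna15-1* (adjusted p = 0.65).

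Genes whose level over the 11 arrays most resembled the mean of *UIP3*, *YAT1* and *SWH1* were found by Pearson's r, as a description. They were *SPL2* (r = 0.994), *PHO81* (0.994), *VTC3* (0.993), *YBR287W* (0.992) and *YNL134C* (0.991), none of them on chromosome I. The 11 points share 3 strains, and the *rna15-1* arrays set these values apart. *SPL2* was 3.91 lower in *rna15-1* than in the wild type, at a mean of 6.97, and the differences of the other 4 ran from -2.41 to -1.13, so all stayed above background there. Ranked by Spearman's rho, 1 of the 5 was again among the first 5, and without *rna15-1* array 3, 2 were.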

How the data were processed

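The deposited table holds log2 intensities of 11 Affymetrix arrays. The submitters' notes name GCOS, RMA and limma without versions. The authors turned the scans into these values by robust multiarray averaging (RMA), and their own tests used limma. RMA normalises over all arrays, and these log2 values were used as deposited. The labels name YPAD medium, and they give 5 wild-type arrays where the methods state triplicates.

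Of 10928 probe sets, 7244 have 1 gene name in the platform annotation, 1 has several and 3683 have none, and 5498 matched the R64 RefSeq gene table. For 47 genes with several probe sets the brightest was used. The table served only for names and gene order, since the sources used here give no build, and no coordinates or sequences are printed. A model with 1 coefficient per strain was fitted to 5449 genes with limma 3.58.1 (R 4.3.3) and p-values were adjusted by the Benjamini-Hochberg method over all of them. P-values measure the spread between these arrays, which the labels call biological replicates, and their number limits the precision. A gene under background on every array of a group (*SWH1* likewise, at 2 of 3 above) has only a bound: the mean of the bright group against the mean, per *rna15-1* array, of the higher of signal and background. The fit was tested on simulated data.

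The members, the gene lists and the alternatives were chosen with earlier results of these data known. Of 65 list entries, 59 were measured. Named genes are the members, the genes between them, the 10 measured genes on the left and all 4 on the right, up to 3 genes per list and mutant that passed an adjusted p of 0.01 and changed most, and the 5 genes most alike. Those named outside this rule (*CCR4*, *TDA8*, *AGP3*, *ZNF1*, *SWC7*, the run on chromosome VI, and list members given as not passing or for comparison) were chosen after their values were seen. Alternatives were the wild-type subsets, quantile normalisation, a median shift, only the groups compared, an intensity trend, the mean of probe sets, a filter on dim genes, the adjusted p alone, the replicate number as a block, other backgrounds and leaving out each array. Figures were drawn with matplotlib.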

Additional observations from a re-analysis of the deposited data

Results flagged for a closer look

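In 7 genes of those listed or next to the stretch, all *rna14-1* arrays lay on one side of the wild-type range and all *rna15-1* arrays on the other. Of all genes, 3.08% met this condition. The share among the genes looked through was not counted, so the 7 cannot be set against that percentage. The difference between the mutants was not tested for any of the 7. *FLO1* differed from the wild type by 2.75 in *rna14-1* and by -1.97 in *rna15-1*, with every *rna15-1* array under background. *FLO9*, on the same chromosome and read by a probe set marked as shared, was at 1.40 and -0.77. In the opposite sense, *YAR068W*, to the right of *FLO1*, was at -0.24 in *rna14-1* and 2.07 in *rna15-1*, the DUP240 gene *PRM8* was at -0.32 and 0.77, the pheromone-regulated gene *PRM4* at -0.52 and 0.63, the oxysterol-binding protein homologue *OSH7* at -0.30 and 0.28, and the alpha-specific pheromone receptor gene *STE3* was at -0.59 and 0.86. Among 54 sets of 5 wild-type values of the named genes and neighbours, 0 held an array far from the others by Dixon's criterion, which chance alone would meet in about 1 set of 20. The criterion looks for a single array apart from the rest. It cannot flag arrays that lie apart together, as wild-type arrays 1 and 2 did for the unmarked *MST28* set.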

How the results depend on the processing

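Of the results in *rna14-1*, the directions of all 5 members held under every alternative, and *UIP3*, *YAT1* and *FLO1* kept an adjusted p under 0.01 in each of the 20 refits. *PRM9* lost it against wild-type arrays 1 and 2 only (-0.34) and with an intensity trend (-0.58, adjusted p = 0.0116), and when any of 7 single arrays was left out, with differences of -0.68 to -0.53 over all 11 omissions. *SWH1* lost it against wild-type arrays 3 to 5 only (-0.27) and without *rna14-1* array 2, with -0.36 to -0.26 over the omissions. With the replicate number as a block, *PRM9* (-0.49, adjusted p = 0.05) and *SWH1* (-0.36, adjusted p = 0.0117) did not pass, and 414 genes were called higher and 309 lower in *rna14-1*, against 549 and 434. Whether the numbers pair the arrays was not settled: deviations of same-numbered arrays correlated from -0.14 to 0.34, over 0.1 in 3 of 9 pairs. Those of arrays with unlike numbers correlated from -0.36 to 0.32. With an adjusted p under 0.01 as the one condition, *rna14-1* had 1788 genes up and 1606 down (members 1 and 4, against 0 and 0), and *rna15-1* had 1539 and 1348. In *rna14-1*, quantile normalisation gave -1.06 for *PRM9* and 2.09 for *FLO1*. It moved the *rna15-1* differences of *SWH1* to -6.05 and *FLO1* to -2.31. With the 99th percentile as background, the log2 bounds of the wild type over *rna15-1* were 6.50 for *UIP3*, 3.08 for *PRM9*, 5.19 for *YAT1*, 5.41 for *SWH1* and 0.12 for *FLO1*. With the background median they were 8.23 for *UIP3*, 4.60 for *PRM9* and 1.77 for *FLO1*, and 1 gene in the fit, *UIP3*, was under it on every *rna15-1* array and above it on every wild-type array. The unmarked *MST28* set, not in the fit, was under it on all 3 *rna15-1* arrays too. Of 51 calls of genes that the naming rule took from the lists, 5 were lost in some alternative: *FLO10* in 10 of 20 in *rna15-1* and in 2 in *rna14-1*, *UBC9* (*rna14-1*) in 6, and *KES1* (*rna14-1*) and *NFI1* (*rna15-1*) in 1 each. The call of *FLO8* in *rna15-1*, not among the 51, was lost in 13 of 20. The cause of these shifts was not tested, apart from the height of the background. The low signal of *FLO1* in the wild type limits what a decrease can show.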
